A study of Homo sapiens with 4 samples.

Results

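The 9 genes described here are those that keep, write and remove methyl groups on cytosine in DNA: UHRF1, DNMT1, DNMT3A, DNMT3B, TET1, TET2, TET3, TDG and MBD4. They are 9 of the 61267 genes in the deposited count table, found by symbol, and all 9 passed the filter on low counts that left 18368 genes for testing, TET1 through its vehicle libraries alone. The set was chosen by the fall of UHRF1 in the comparison of Spautin-1 with vehicle, so the change in UHRF1 is described without a test, and the calls of the other 8 genes, which come from the same contrast, are given as a description and support nothing. The cells were SU-DHL-2, an established line of diffuse large B-cell lymphoma labelled wild type. One group of 2 libraries received Spautin-1, a compound known to block the deubiquitinases USP10 and USP13, at a dose of 10 µM over 36 h, and the other group of 2 received the solvent. It is a single cell line at a single dose and time of Spautin-1, and no time is given for the vehicle libraries. The labels do not say that replicates came from separate cultures. Every test below therefore reads the spread of 4 samples, and that spread could be technical.

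In mammalian DNA, methylation sits mostly on cytosines of CpG dinucleotides. After replication UHRF1 recognises hemimethylated CpG and brings in DNMT1, which copies the mark onto the daughter strand, while DNMT3A and DNMT3B set marks at new sites. The TET dioxygenases oxidise 5-methylcytosine to 5-hydroxymethylcytosine and further products, and the glycosylase TDG cuts out the most oxidised forms for base excision repair. MBD4, a second glycosylase, removes the thymine that arises when a methylated cytosine deaminates. In B cells these enzymes are known for their part in the germinal centre, and TET2 and DNMT3A are known as genes mutated in blood cancers.

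Library totals were 34893634 to 38325536 counts with Spautin-1 and 34115420 to 38362526 with vehicle, and 25154 to 25683 genes were detected per library. Mitochondrial transcripts took 7.63% to 8.34% of counts in Spautin-1 libraries and 4.94% to 5.25% in vehicle libraries. Of 14 B-cell markers, 9 were called higher and 0 lower, and their summed level was 1869 to 1909 CPM with Spautin-1 and 1229 to 1359 CPM with vehicle. The B-cell surface gene MS4A1 (CD20) stood at 629 and 608 CPM with Spautin-1 and 442 and 379 CPM with vehicle, a marker of the labelled cell type. CPM values here are counts divided by library size after TMM scaling, which sets library size by the bulk of genes. The 23 markers of other cell types summed to 65.2 to 68.8 CPM with Spautin-1 and 58.2 to 66.2 CPM with vehicle. Of these, the epithelial adhesion gene EPCAM gave 50.5 and 54.7 CPM with Spautin-1 and 45.5 and 51.7 CPM with vehicle, and the T-cell and NK-cell genes TRAC and GNLY were at 0 in all 4 libraries. The part of these shifts in the results below was not tested.

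Beside UHRF1, which is not counted, 3 of the other 8 genes were called higher with Spautin-1 (DNMT3A, TET2 and TET3) and 3 lower (DNMT1, DNMT3B and TDG), while TET1 and MBD4 missed the threshold (edgeR quasi-likelihood test over all genes, two-sided, Benjamini-Hochberg adjusted p under 0.05). Over all 18368 genes tested, 22.0% were called, 11.5% as higher and 10.5% as lower. Since UHRF1 in this contrast chose the set, nothing is read from the difference between these shares. Apart from that of DNMT1, the calls depended on having both Spautin-1 libraries. Without Spautin-1 replicate 1 and without Spautin-1 replicate 2 alike, 0 of the 8 were called higher and 1 lower, DNMT1. Those fits take the spread of the lone Spautin-1 library from the vehicle pair, and none of the 9 changed sign in any of them. The 2 groups did not overlap in 8 of the 9 genes, against 61.4% of all genes tested. Those 8 take in UHRF1, which chose the set, and TET1, which passed the filter through its vehicle libraries alone. Nothing is therefore read from the difference between this count and that share.

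**Figure D1:**
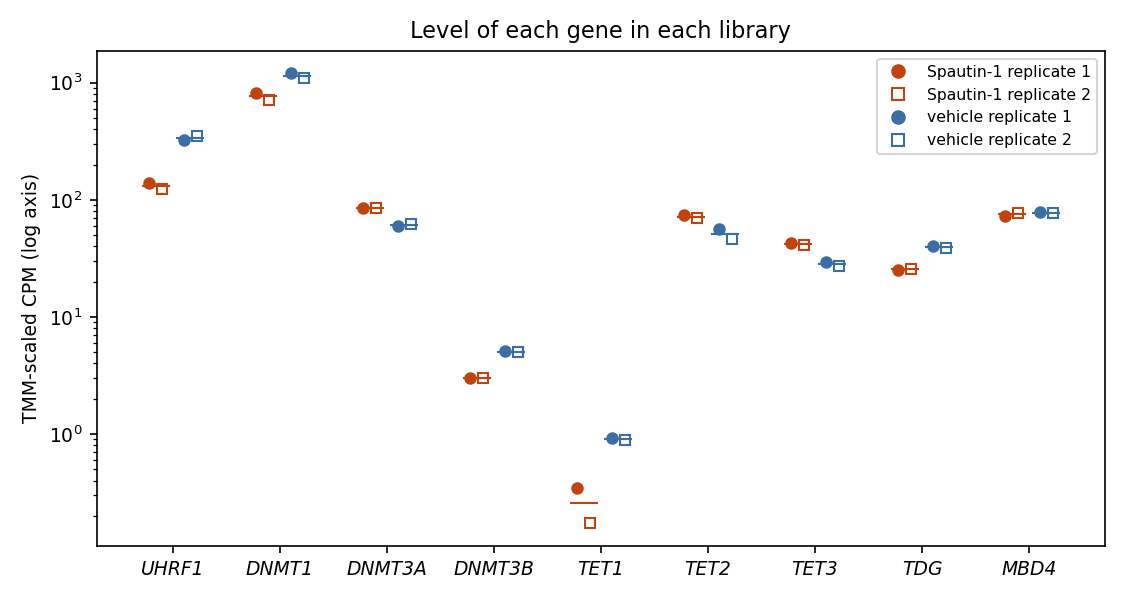
Level of each of the 9 genes in each library, in TMM-scaled CPM on a log axis, with Spautin-1 left of vehicle, filled circles for replicate 1, open squares for replicate 2 and a line at the mean of the 2 libraries. The Spautin-1 libraries lie below the vehicle libraries for UHRF1, DNMT1, DNMT3B, TET1 and TDG and above them for DNMT3A, TET2 and TET3, and MBD4 overlaps.

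The maintenance pair was lower after Spautin-1, UHRF1 by more than DNMT1. UHRF1 (chromosome 19, 4903080 to 4962154, plus strand, GRCh38) stood at 138 and 125 CPM in the Spautin-1 libraries, against 326 and 352 CPM in the vehicle libraries. Both Spautin-1 libraries were far below both vehicle libraries, and the gap was many times the spread inside either group. The means were 131 ± 9.47 CPM with Spautin-1 and 339 ± 17.9 CPM with vehicle (SD, n = 2 each). The log2 fold change was -1.37 ± 0.10 (SE), so that 38.7% of the vehicle level was left. Ordered from the most negative change, UHRF1 was number 597 of 18368 genes. DNMT1 (chromosome 19, 10133342 to 10231286, minus strand), the most abundant of the 9, stood at 816 and 710.5 CPM with Spautin-1, against 1203 and 1089 CPM with vehicle. Its groups were also apart, with means of 763 ± 74.9 CPM with Spautin-1 and 1146 ± 80.5 CPM with vehicle (SD, n = 2 each). The log2 fold change of DNMT1 was -0.59 ± 0.10, or 66.6% of the vehicle level, and its value ran from -0.48 without Spautin-1 replicate 2 to -0.70 without Spautin-1 replicate 1.

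UHRF1 and DNMT1 both hold E2F-type letters near their annotated starts, in different forms, and these windows are shown because the 2 genes work as a pair and were both lower. Each window runs from 250 bases before to 50 bases after the RefSeq start (GRCh38.p14), on the strand of the gene. Capitals mark matches to the letters TTTGGCGC, TTTCGCGC, TTTGCCGC or GCGGGAA, forms of the motif of the cell-cycle factors E2F, searched on both strands.
UHRF1, chr19:4909251-4909550, plus strand: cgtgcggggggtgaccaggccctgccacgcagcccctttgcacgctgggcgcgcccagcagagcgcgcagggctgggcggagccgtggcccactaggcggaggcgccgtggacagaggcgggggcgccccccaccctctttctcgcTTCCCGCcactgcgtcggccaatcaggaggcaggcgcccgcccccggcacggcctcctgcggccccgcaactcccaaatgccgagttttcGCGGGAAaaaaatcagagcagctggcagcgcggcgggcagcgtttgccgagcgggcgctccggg
DNMT1, chr19:10194904-10195203, minus strand: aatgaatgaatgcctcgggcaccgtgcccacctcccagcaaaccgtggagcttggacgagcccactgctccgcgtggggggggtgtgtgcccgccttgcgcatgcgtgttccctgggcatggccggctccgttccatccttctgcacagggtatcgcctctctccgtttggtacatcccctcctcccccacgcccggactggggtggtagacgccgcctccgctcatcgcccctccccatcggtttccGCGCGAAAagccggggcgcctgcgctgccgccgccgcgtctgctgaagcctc
UHRF1 held 2 matches to GCGGGAA, 1 on each strand, which begin 104 and 14 bases before the start, and DNMT1 held 1 match to TTTCGCGC, on the opposite strand, that spans the start. Such letters occurred in 3 of the 9 windows and in 8.07% of 27305 RefSeq promoters of the same length. The windows of DNMT3B and TDG, which were also called lower, held 0. A match describes the letters and is not evidence of binding. The RefSeq starts lie 6421 bases (UHRF1) and 36333 bases (DNMT1) inside the outermost starts of the count table, and which start these cells use was not measured.

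The de novo enzymes went opposite ways. DNMT3A (chromosome 2, 25227855 to 25342590, minus strand) stood at 85.5 and 85.7 CPM in the Spautin-1 libraries, against 59.5 and 61.9 CPM in the vehicle libraries. Both Spautin-1 libraries were higher, with almost no spread inside the group. DNMT3A rose 1.41-fold, to 85.6 ± 0.153 CPM with Spautin-1, against 60.7 ± 1.64 CPM with vehicle (SD, n = 2 each), and its log2 fold change was 0.50 ± 0.11. DNMT3B (chromosome 20, 32762385 to 32809359, plus strand), at a far lower level, stood at 3.01 and 3.03 CPM with Spautin-1, against 5.10 and 4.97 CPM with vehicle. Those values rest on 113 and 105 reads with Spautin-1 and 177 and 192 reads with vehicle, with no overlap. DNMT3B fell 1.66-fold, a log2 fold change of -0.74 ± 0.23, and its call was lost with DESeq2, where the log2 fold change was also -0.74. Both DNMT3A and DNMT3B missed the threshold on leaving out either Spautin-1 library. The table counts reads per gene, so the long and short forms of DNMT3A were not separated.

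The TET family was carried by TET2 and TET3, and both rose. TET2 (chromosome 4, 105145875 to 105279816, plus strand) stood at 73.8 and 69.7 CPM with Spautin-1, against 55.7 and 46.4 CPM with vehicle. The groups did not overlap, although the vehicle libraries lay further apart than the Spautin-1 libraries. The change of TET2 was 1.40-fold, a log2 fold change of 0.49 ± 0.13, with 0.36 without vehicle replicate 2 and 0.63 without vehicle replicate 1. TET3 (chromosome 2, 73984910 to 74108176, plus strand) stood at 43.0 and 40.7 CPM with Spautin-1, against 29.6 and 27.0 CPM with vehicle. Every Spautin-1 value was above every vehicle value, with means of 41.9 ± 1.62 and 28.3 ± 1.84 CPM (SD, n = 2 each). TET3 rose 1.48-fold, a log2 fold change of 0.57 ± 0.13. The calls of TET2 and TET3 were lost on leaving out either Spautin-1 library. TET1 (chromosome 10, 68560337 to 68694487, plus strand) was near the limit of detection, with 13 and 6 reads in the Spautin-1 libraries and 32 and 34 reads in the vehicle libraries. The Spautin-1 counts were lower in both libraries, yet a log2 fold change of -1.77 ± 0.64 missed the threshold. Only its vehicle libraries carried it through the filter on low counts. The change passed without that filter (-1.77) and with an offset for GC content (-1.87), and it ran from -2.37 without Spautin-1 replicate 1 to -1.36 without Spautin-1 replicate 2.

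The start windows of TET3 and TET2 are shown because both genes rose while differing in base composition. The windows and the capitals are as for UHRF1.
TET3, chr2:73984660-73984959, plus strand: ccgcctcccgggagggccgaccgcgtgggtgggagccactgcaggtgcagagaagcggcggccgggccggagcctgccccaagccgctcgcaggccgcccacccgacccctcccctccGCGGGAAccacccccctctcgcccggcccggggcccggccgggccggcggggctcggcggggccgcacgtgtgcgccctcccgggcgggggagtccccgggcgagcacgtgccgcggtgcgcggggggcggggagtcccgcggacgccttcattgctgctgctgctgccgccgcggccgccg
TET2, chr4:105145625-105145924, plus strand: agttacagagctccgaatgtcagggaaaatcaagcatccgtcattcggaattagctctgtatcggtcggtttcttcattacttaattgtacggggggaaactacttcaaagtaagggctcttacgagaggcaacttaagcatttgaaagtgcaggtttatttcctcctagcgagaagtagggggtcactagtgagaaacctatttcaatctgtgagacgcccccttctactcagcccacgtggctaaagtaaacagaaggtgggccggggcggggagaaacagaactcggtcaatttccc
TET3 held 1 match to GCGGGAA, the form found in UHRF1 and not in DNMT1, 132 bases before its start, and TET2 held 0. The TET3 window held 45 CpG dinucleotides, more than 96.6% of RefSeq promoters, and the TET2 window held 13, against a median of 14. UHRF1 held 36 and DNMT1 30, and the other windows ran from 3 in DNMT3B to 29 in MBD4. The DNMT3B window lies 17467 bases inside the outermost start of the count table. The 3 higher genes held 26, 13 and 45 CpG (DNMT3A, TET2, TET3) and the 4 lower genes 36, 30, 3 and 22 (UHRF1, DNMT1, DNMT3B, TDG). Because the starts in use were not measured and UHRF1 chose the set, these windows cannot link CpG number or E2F-type letters to direction. Such a link was not tested.

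Of the glycosylases, TDG was lower and MBD4 stayed close to its vehicle level. TDG (chromosome 12, 103965822 to 103988874, plus strand) stood at 25.3 and 25.7 CPM with Spautin-1, against 40.3 and 38.8 CPM with vehicle. The groups were well apart and tight inside. TDG fell 1.55-fold, to 25.5 ± 0.278 CPM with Spautin-1, against 39.6 ± 1.07 CPM with vehicle (SD, n = 2 each), and its log2 fold change was -0.63 ± 0.13. The call was lost on leaving out either Spautin-1 library, with log2 fold changes of -0.63 without replicate 1 and -0.64 without replicate 2. MBD4 (chromosome 3, 129430947 to 129440179, minus strand) stood at 72.7 and 77.1 CPM with Spautin-1, against 78.8 and 76.6 CPM with vehicle. Its groups overlapped, and the log2 fold change of -0.05 ± 0.11 had a 95% interval of -0.29 to 0.19. TDG shares 168 exonic bases on the same strand with ENSG00000288744, which held 149 and 105 counts with Spautin-1 and 283 and 345 counts with vehicle. MBD4 shares 279 bases with IFT122 on the opposite strand. The strand setting of the counting is not known. The pseudogenes TDGP1, TET1P1 and DNMT3AP1 had 0 counts in all 4 libraries.

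**Figure D2:**
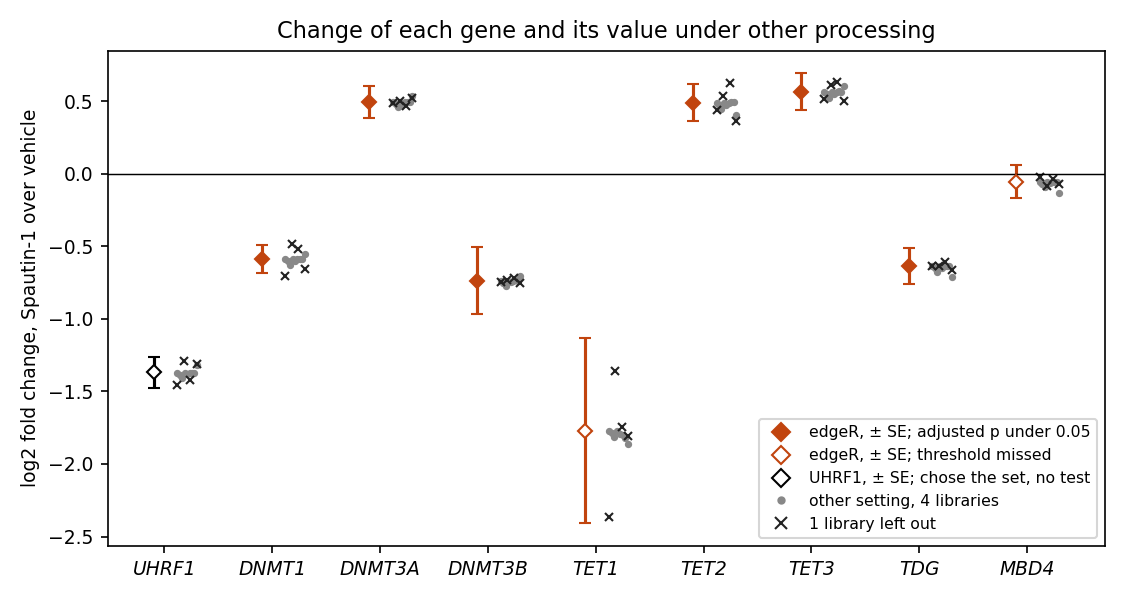
Log2 fold change of each gene, Spautin-1 over vehicle, from edgeR with its SE (diamonds, open where the threshold was missed and black for UHRF1, which chose the set and has no test), beside the values with other scalings, filters, tools and covariates (grey points) and with 1 library left out (crosses). No point lies on the other side of 0 from its diamond, and TET1 has the widest range, -2.37 to -1.36.

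Per length, in CPM per kilobase of exon (RPKM), the levels of the 9 genes spanned 3 tiers. DNMT1, UHRF1 and MBD4 were the upper tier, at means of 49.6 ± 4.87, 25.5 ± 1.84 and 22.3 ± 0.924 RPKM with Spautin-1 and 74.5 ± 5.23, 65.9 ± 3.48 and 23.2 ± 0.463 RPKM with vehicle (SD, n = 2 each). DNMT3A, TDG, TET2 and TET3 were in the middle, in that order with Spautin-1, at 6.21, 5.22, 4.35 and 3.24 RPKM. With vehicle TDG led this tier at 8.10 RPKM, before DNMT3A at 4.40, TET2 at 3.10 and TET3 at 2.19 RPKM. No neighbours in either order had overlapping replicate values, so TDG and DNMT3A exchanged places between the groups. DNMT3B, at 0.439 RPKM with Spautin-1 and 0.732 RPKM with vehicle, and TET1, at 0.0270 and 0.0937 RPKM, were the lowest tier. The lengths take in every annotated exon, 15379 bases for DNMT1 and 5145 for UHRF1. With the length of the principal coding transcript, 5408 bases for DNMT1 and 3230 for UHRF1, a choice made after the data were seen, the order was the same and the distances were not. DNMT1 then averaged 141 RPKM with Spautin-1 and 212 RPKM with vehicle, UHRF1 40.6 and 105 RPKM, and MBD4 30.3 and 31.5 RPKM. How far UHRF1 lay below DNMT1 thus depended on the length used.

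Ratios taken inside each library do not depend on its scaling, but their size depends on the lengths. UHRF1 over DNMT1, per length, was 0.505 and 0.524 in the Spautin-1 libraries, against 0.811 and 0.965 in the vehicle libraries. With principal transcript lengths these ratios were 0.283 and 0.293 with Spautin-1, against 0.454 and 0.540 with vehicle. DNMT3A over DNMT3B was 14.2 and 14.1 with Spautin-1, against 5.83 and 6.21 with vehicle. Both ratios were thus separated between the groups, the first lower and the second higher with Spautin-1. The first holds the fall of UHRF1 that chose the set, so nothing is read from its separation. Among DNMT transcripts per length, DNMT3A made up 10.4% and 11.8% with Spautin-1, against 5.19% and 5.90% with vehicle. With principal transcript lengths the shares of DNMT3A were 5.60% and 6.39% with Spautin-1, against 2.73% and 3.11% with vehicle, lower throughout and still apart between the groups. TDG over MBD4 was 0.239 and 0.229 with Spautin-1, against 0.351 and 0.348 with vehicle. TET3 over TET2 was 0.742 and 0.744 with Spautin-1, against 0.676 and 0.740 with vehicle. The TET3 to TET2 ratio of Spautin-1 replicate 1 was thus barely above that of vehicle replicate 2. With 2 libraries against 2, an exact permutation test of a ratio cannot go below p = 0.333, so none was used.

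**Figure D3:**
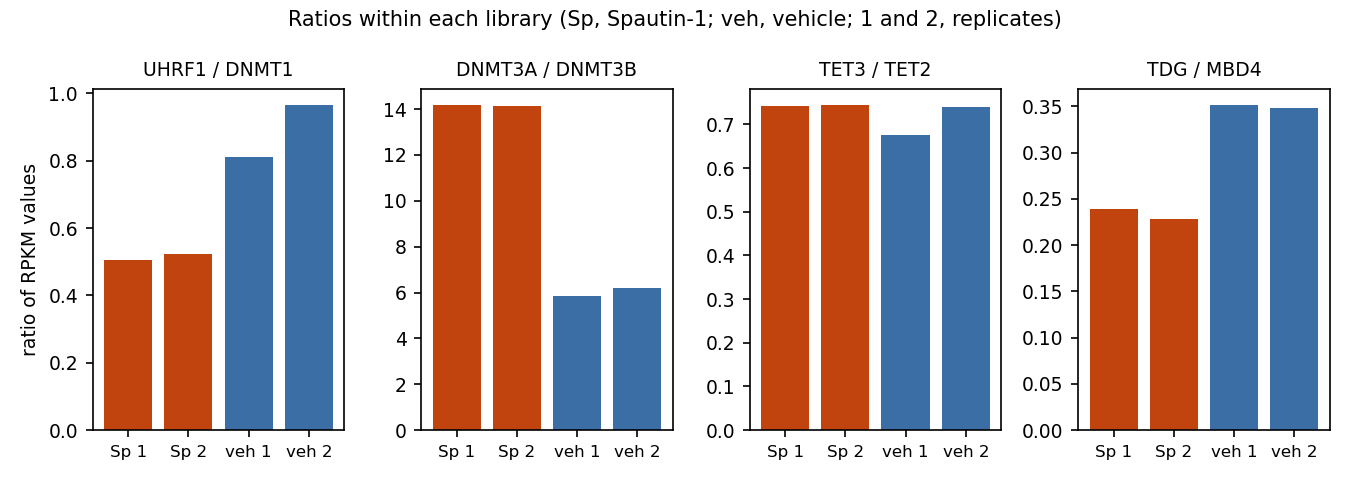
Ratio of RPKM values of 4 gene pairs in each library, each axis starting at 0, with the 2 Spautin-1 libraries left of the 2 vehicle libraries. UHRF1 over DNMT1, which holds the fall of UHRF1 that chose the set, and TDG over MBD4 are lower with Spautin-1. DNMT3A over DNMT3B is higher, and TET3 over TET2 is 0.742 and 0.744 against 0.676 and 0.740.

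The related lists below were drawn up from known roles, with earlier results of these data known, and their counts stand beside the 11.5% of all genes called higher and the 10.5% called lower. Around the maintenance pair, 6 of 15 tested partners of UHRF1 and DNMT1 were called lower and 1 higher, with a median log2 fold change of -0.17, against -0.01 over all genes tested. HELLS, the remodelling helicase that opens nucleosomes for maintenance, was at 186 and 174 CPM with Spautin-1, against 322 and 326 CPM with vehicle, a 1.80-fold fall (edgeR adjusted p = 0.000116). USP7, the deubiquitinase that binds UHRF1 and DNMT1, was at 160 and 158 CPM with Spautin-1, against 330 and 281 CPM with vehicle, which made it lower by a log2 fold change of -0.94 ± 0.11. Both genes had no overlap between groups. The clamp PCNA, its partner PCLAF, the ligase LIG1 and the deacetylase HDAC1 were the other 4 that were lower. The paralogue of UHRF1, UHRF2, went the other way, with 27.9 and 31.2 CPM with Spautin-1, against 24.0 and 16.7 CPM with vehicle. UHRF2 rose 1.45-fold (edgeR adjusted p = 0.0436), a call that was lost with library size scaling and on leaving out vehicle replicate 2 or either Spautin-1 library. UHRF1 over UHRF2, per length, was 9.54 and 7.69 with Spautin-1, against 26.2 and 40.6 with vehicle. That ratio holds the fall of UHRF1 that chose the set, so nothing is read from it. Without Spautin-1 replicate 1 and replicate 2, 3 and 2 partners were called lower and 0 higher, and without vehicle replicate 2, 7 were lower and 0 higher.

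Genes known to peak around S phase, when maintenance methylation takes place, were mostly lower. Of 36 tested, 23 were called lower and 0 higher, with a median log2 fold change of -0.45, and 35 of the 36 values were negative. PCNA and LIG1, counted as partners, and FEN1, counted under repair, also act in replication and are not among the 36. The lower calls of these lists are therefore not separate observations. CCNE2, the cyclin of S-phase entry, was at 8.21 and 7.85 CPM with Spautin-1, against 19.4 and 18.6 CPM with vehicle, a 2.37-fold fall (edgeR adjusted p = 0.000264). MCM4, a subunit of the replicative helicase, was at 147 and 157 CPM with Spautin-1, against 257 and 240.5 CPM with vehicle, a 1.64-fold fall. Of the 36 genes, 13 had a more negative change than DNMT1, so DNMT1 lay inside the range of this list. Against UHRF1, 1 of the 36 had a more negative change. UHRF1 was chosen for its fall, so its place near the lower end of the list follows from that choice and nothing is read from it. Without Spautin-1 replicate 2, 9 of these genes were called lower, and without Spautin-1 replicate 1, 13. In bulk RNA, fewer cells in S phase and less RNA per cell cannot be told apart, and the part of the S-phase genes in the values of UHRF1 and DNMT1 was not tested.

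Among the genes listed as cofactors and guards of the DNMT enzymes, and among the readers of CpG, calls went both ways. Of 7 tested cofactors and guards, DCAF5, a ubiquitin ligase receptor, was called higher at 1.29-fold, and SETD7, a lysine methyltransferase that acts on DNMT1, was called lower at a log2 fold change of -0.44. The call of DCAF5 was lost with all 3 other scalings (RLE, upper quartile and library size). The median was -0.09, and neither call held without Spautin-1 replicate 1 or replicate 2, when 0 of the list was called, while 2 were lower when vehicle replicate 1 was left out and 3 when vehicle replicate 2 was. DNMT3L, the inactive cofactor of DNMT3 enzymes, had at most 0.0533 CPM in any library and was not tested. Of 10 readers, 2 were lower and 1 higher, with a median of 0.05. CXXC1, which binds unmethylated CpG, was at 68.0 and 67.2 CPM with Spautin-1, against 111 and 116 CPM with vehicle, a 1.68-fold fall (edgeR adjusted p = 0.000595). MBD3, a subunit of the NuRD complex, was lower by a log2 fold change of -0.66, with vehicle libraries as far apart as 105 and 173 CPM. MBD5 rose 1.51-fold, and its call was lost on leaving out either Spautin-1 library, with 0 readers then higher, and without vehicle replicate 2, 2 readers were higher.

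The base excision repair list took in glycosylases that act beside TDG as well as later steps. Of 18 tested genes, 4 were called lower and 0 higher, with a median log2 fold change of -0.05. APEX1, XRCC1, LIG3 and POLB, which act after a glycosylase, were not called. FEN1, the flap nuclease of long-patch repair and replication, was at 110.3 and 115 CPM with Spautin-1, against 199 and 195 CPM with vehicle, a 1.75-fold fall (edgeR adjusted p = 0.000239). NEIL1, a glycosylase for oxidised bases, was at 2.72 and 1.88 CPM with Spautin-1, against 6.13 and 8.13 CPM with vehicle, a 3.10-fold fall. UNG, the uracil glycosylase, and PARP1, the sensor of strand breaks, were the other 2 that were lower. Without vehicle replicate 1, 6 genes of the list were lower and 1 higher, without vehicle replicate 2, 4 and 2, and without Spautin-1 replicate 2, 4 and 1.

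Of 9 tested deaminases and factors tied to demethylation, 7 reached the filter's count in both groups, of which 4 were called higher and 0 lower, with a median log2 fold change of 0.72. GADD45A, a stress protein proposed to link TDG with demethylation, was at 16.5 and 16.7 CPM with Spautin-1, against 3.74 and 3.93 CPM with vehicle, a 4.31-fold rise. Its relative GADD45B was at 16.3 and 19.8 CPM with Spautin-1, against 1.67 and 3.83 CPM with vehicle, a 6.51-fold rise (edgeR adjusted p = 7.65e-05). In both genes the groups did not overlap. HMCES, which shields abasic sites, and APOBEC3G were also called higher. APOBEC3 genes resemble each other, so their reads may be split between them. The call of APOBEC3G was lost with library size scaling, DESeq2 and limma-voom, without vehicle replicate 1 and on leaving out either Spautin-1 library. GADD45G had 36 and 30 counts with Spautin-1 and 0 in both vehicle libraries, at least 11.1-fold higher against a floor of 3 counts per library. It passed the filter through the Spautin-1 libraries alone, so it had to differ and is not counted as a call. Over all 9, with GADD45G at that bound, the median was 0.72 as well.

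In the methyl donor cycle, the transcript of the first enzyme was lower. MAT2A, the enzyme that makes S-adenosylmethionine, was at 59.4 and 53.8 CPM with Spautin-1, against 149 and 133 CPM with vehicle. Both Spautin-1 libraries were far below, a 2.49-fold fall (edgeR adjusted p = 1.6e-05), the 1 decrease called among 13 tested genes of the cycle. AHCY, which clears S-adenosylhomocysteine, and the mitochondrial folate enzyme MTHFD2 were called higher, at 1.34-fold and 1.51-fold, and the median was 0.12. With either Spautin-1 library left out 1 was higher, MTHFD2, and without vehicle replicate 1, 4 were higher and 2 lower. Among 17 tested genes that make or use 2-oxoglutarate, the TET co-substrate, or that bind TET proteins, 1 was higher, the isocitrate dehydrogenase IDH2 at 1.33-fold, and 1 lower, IDH3A at a log2 fold change of -0.42, with a median of -0.03. Neither held on leaving out either Spautin-1 library, 3 were lower when either vehicle library was left out, and 2 higher without vehicle replicate 2.

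Germline genes known to be silenced by promoter methylation gave no increase that passed the test. Of 36 in the table, 18 had 0 counts in all 4 libraries, 9 had enough reads to be tested and 7 reached the filter's count in both groups. Of these 7, 0 were called higher and 1 lower, with a median log2 fold change of -0.32. Genes that reach this count in both groups were already transcribed with vehicle, so the 7 cannot show whether silenced genes were switched on. MAGEA1, a cancer-testis gene, was at 29.3 and 33.4 CPM with Spautin-1, against 43.5 and 41.6 CPM with vehicle, a 1.36-fold fall (edgeR adjusted p = 0.0289) that was lost on leaving out either Spautin-1 library. CTCFL, the germline relative of CTCF, had 2 and 3 counts with Spautin-1 and 13 and 24 counts with vehicle, and it passed the filter through the vehicle libraries alone, so it is not counted as a call. With vehicle replicate 2 left out, 4 genes were called lower, and 0 on leaving out either Spautin-1 library. MAGE genes are near copies of each other, so their reads may be split. DNA methylation itself was not measured.

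**Figure D4:**
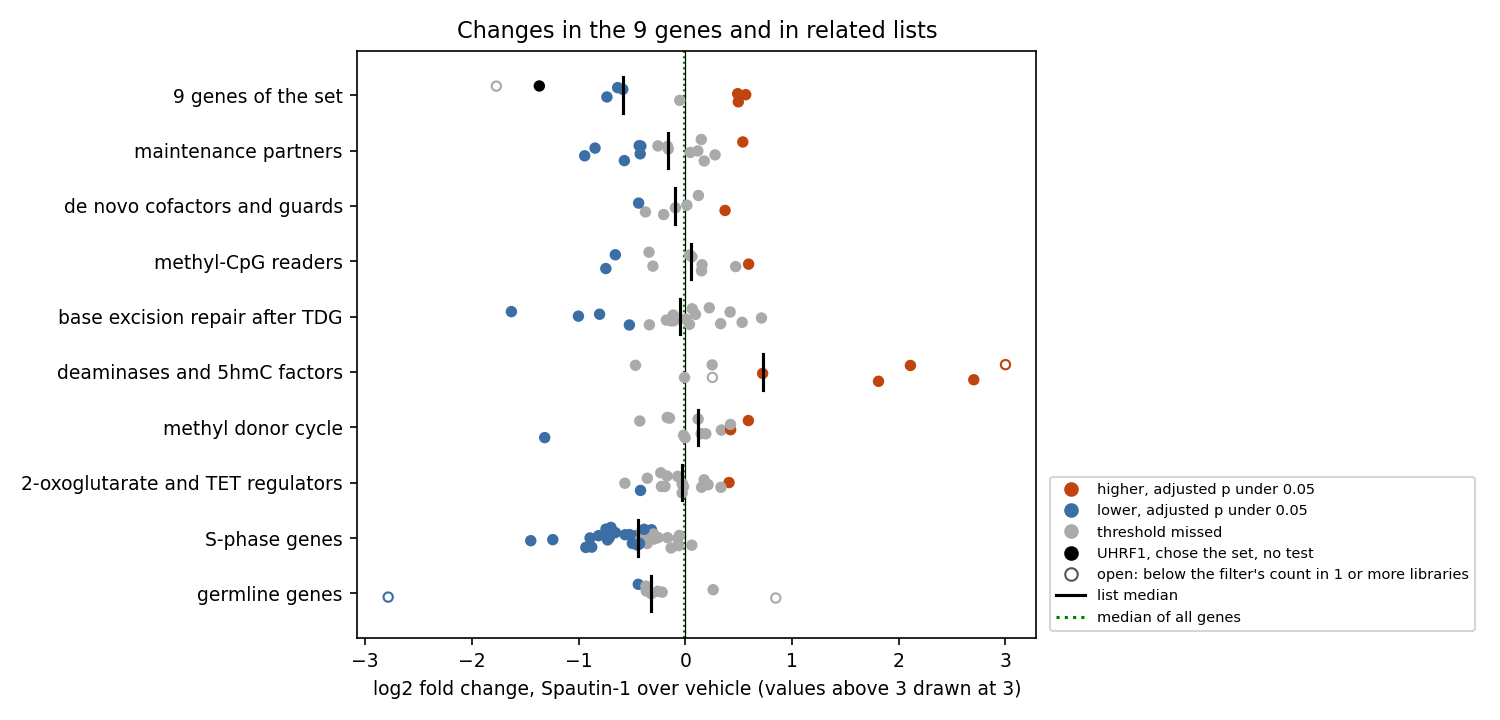
Log2 fold change, Spautin-1 over vehicle, of each tested gene in the set of 9 and in 9 related lists, with points above 3 drawn at 3 (GADD45G, at 0 counts in vehicle), open points for genes below the filter's count in 1 or more libraries, black for UHRF1, a bar at each list's median and a dotted line at the median of all genes. S-phase genes lie almost wholly left of 0, with a median of -0.45. Of the 7 deaminases and 5hmC factors that reached the filter's count in both groups, 5 lie right of 0, with a median of 0.72.

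By likeness of pattern, the 5 genes closest to UHRF1 among 9091 with a symbol and a mean of at least 5 CPM were YJEFN3, EPB41L4A, DOK3, RBM12B and SFPQ. Likeness was the Euclidean distance between centred log2 CPM over the 4 libraries, and the 5 distances ran from 0.0740 to 0.121. SFPQ, a splicing and DNA-binding protein, was at 931 and 898 CPM with Spautin-1, against 2327 and 2287 CPM with vehicle. The other 4 genes had log2 fold changes of -1.33 to -1.37, next to -1.37 for UHRF1. Over 4 libraries in 2 groups this measure follows mainly the size of the change. DNMT1 was number 690 and TDG number 547 by this measure, at distances of 0.802 and 0.755. TET1 and DNMT3B lay closer, at 0.567 and 0.661, but their means were under 5 CPM, so they have no number.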

How the data were processed

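Stranded mRNA libraries (VAHTS kit) were prepared from TRIzol-extracted total RNA, per the labels' protocols. The authors trimmed reads with Trimmomatic 0.36 and counted them per GRCh38 gene using featureCounts of Subread 1.5.1, per the submitters' processing notes, which also name edgeR 3.12.1. The sources used here do not give the aligner, annotation release or strand setting. The deposited table holds unnormalised read counts for each gene and its exonic length, per the file headers.

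Counts were filtered with filterByExpr (minimum count 10, minimum total count 15), scaled by TMM and compared with the edgeR 4.0.16 quasi-likelihood test in R 4.3.3, with two-sided p-values adjusted by Benjamini-Hochberg across the 18368 tested genes and called under 0.05. The SE is the log2 fold change over the square root of F. The test was tried on simulated data with 200 changed genes, whose outcome is not given here, so nothing is read from it. Replicates of a group differed by more than counting error (chi-square per degree of freedom of 7.77 for Spautin-1 and 24.8 for vehicle). Named genes were the members, the called genes with the smallest p in each list, UHRF2, USP7 and the 5 genes most like UHRF1 in log2 CPM (prior count 2). GADD45G, EPCAM, MS4A1, TRAC, GNLY, DNMT3L and list members named without values were added after their values were seen. The members and lists were chosen with earlier results of these data known. One gene is not reported here and was left out of the list counts. Alternatives used limma 3.58.1 and DESeq2 1.42.0. Promoters came from RefSeq (GRCh38.p14), with all 9 genes matched by symbol.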

Additional observations from a re-analysis of the deposited data

How the results depend on the processing

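With other scalings (RLE, upper quartile, library size), other filters (no filter, 1 CPM in 2 libraries), DESeq2, limma-voom, a replicate block and an offset for GC content (loess span 0.3, added after the data were seen, 89.8% of genes tested with a value), 3 of the 8 members other than UHRF1 were called higher throughout and 2 to 4 lower. None of the 9 changed sign in 116 comparisons, and in the 103 of the 8 genes, with 1 library left out or another setting, 11 lost a call and 2 gained one. UHRF1 ran from -1.46 to -1.29 and DNMT1 from -0.70 to -0.48 on the log2 scale. Leaving out 1 library at a time gave 0 to 3 of the 8 higher and 1 to 3 lower, against 3 and 3, 1067 to 2981 genes higher and 780 to 2785 lower over all genes, against 2112 and 1933, and 5 to 15 pathway genes higher and 18 to 51 lower, against 11 and 40 (GADD45G and CTCFL included). The lower counts came without a Spautin-1 library. Per-length levels with library size in place of TMM moved past 1 SD for DNMT3A (6.13 RPKM), DNMT3B (0.434 RPKM) and TDG (5.15 RPKM), each with Spautin-1. The SDs of these 3 with Spautin-1 were small, at 0.0111, 0.00192 and 0.0569 RPKM, and the TMM factors of the Spautin-1 libraries were 0.98 and 0.994. UHRF1, with an SD of 1.84 RPKM, went from 25.5 to 25.2 RPKM with Spautin-1 and stayed within its SD. TET1 has no value with 1 CPM in 2 libraries, where it was filtered out.

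No label ties equal replicate numbers to 1 culture or day, and replicate differences were uncorrelated between the groups (r = -0.0015 over genes). With the replicate number as a block, 3 of the 8 were called higher and 3 lower, and 2615 and 2485 genes over all, which changed no call of a member. In TET1, with 6 to 34 reads per library, and CTCFL, depth limits what can be seen.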
